A study of Mus musculus with 48 samples.

Results

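The miRNAs of fetal ovarian germ cells were compared between embryos with a vinclozolin-exposed lineage on both parents' sides and control embryos of the same crossing scheme. The comparison rests on 4 of the 48 small RNA libraries of the series, all made from primordial germ cells (PGC) of wild-type CD1 female embryos at embryonic day 13.5. It covers every mature miRNA listed in all 4 libraries, which are 332 of the 563 in the count table. In the founding generation, pregnant females drank water giving a daily vinclozolin (VZN) dose of 50 mg per kg body weight, or the vehicle alone, for the first 13 days of pregnancy. The vehicle, 0.3% DMSO by volume, was present in both groups. The embryos studied are a second generation (F2) in which both progenitors descended from the same exposure group, labelled F2 Synergy and written F2Sy here. In the plain F2 generation the labels place the exposure on the female side only. Germ cells were held back on a magnetic column by anti-CD15 beads from pools of about 80 gonads freed of mesonephros, and the labels give a germ cell enrichment of 93 to 96%. VZN and control have 2 libraries each, called library 1 and library 2 after the labels' replicate numbers. Whether the libraries of a pair stem from different litters or pools is not stated in the labels, so a p-value here reflects only how far paired libraries vary, possibly for technical reasons. The 20 other PGC libraries (control, VZN and MEHP, the monoester of a phthalate plasticiser, in F1, F2, F2Sy and F3) served as the background spread. The labelled MEHP dose was 35 mg per kg body weight a day, with the same vehicle. The ovarian somatic fraction, also used for comparison, has a labelled purity of at least 90%.

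Vinclozolin is a fungicide whose metabolites block the androgen receptor, and germ cells of the fetal gonad erase and rebuild much of their epigenetic state in the window sampled. miRNAs are short RNAs that guide Argonaute proteins to messenger RNAs, mostly by pairing of the seed, the bases near the 5′ end, and thereby lower the output of those messages. Female germ cells of this stage are ending proliferation and entering meiosis, and they carry pluripotency-type clusters such as miR-290-295 together with germline clusters of the X chromosome, while the gonad's somatic cells carry let-7, the imprinted Dlk1-Dio3 cluster and mesenchymal miRNAs.

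The mature sequences that the results turn on follow, with the seed (bases 2 to 8) in capitals, from RefSeq annotation of build GRCm38.p6; 284 of the 332 miRNAs had an entry, and host genes are from the GENCODE annotation of the same assembly. The deposited counts were made on another build, mm39, so positions serve only to place the genes. The first pair are the arms of Mir652, which lies within an intron of Tmem164 on the X chromosome, where miR-652-3p occupies chrX:142739060-142739080 on the plus strand.
miR-652-3p: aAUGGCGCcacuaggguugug
miR-652-5p: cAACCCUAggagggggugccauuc
The next set are the 5p arm of miR-183, from an intergenic cluster on chromosome 6, both arms of miR-28a, from an intron of Lpp on chromosome 16, and miR-379-5p of the Dlk1-Dio3 cluster on chromosome 12.
miR-183-5p: uAUGGCACugguagaauucacu
miR-28a-5p: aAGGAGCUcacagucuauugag
miR-28a-3p: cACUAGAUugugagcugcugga
miR-379-5p: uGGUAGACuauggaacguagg
The miR-99/100 family shares the seed ACCCGUA and is shown because its 3 members were higher in both VZN libraries.
miR-99a-5p: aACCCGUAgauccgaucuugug
miR-100-5p: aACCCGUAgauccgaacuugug
miR-99b-5p: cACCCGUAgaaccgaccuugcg
The miR-17 family shares the seed AAAGUGC and is shown because 1 VZN library was low for some of its members and not for others.
miR-17-5p: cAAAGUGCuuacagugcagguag
miR-20a-5p: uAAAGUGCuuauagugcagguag
miR-106a-5p: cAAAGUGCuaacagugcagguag
miR-93-5p: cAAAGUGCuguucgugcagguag
The last are 3 miRNAs whose genes are clustered on chromosome 8, and which separated in the other VZN library (miR-24-3p has a further copy on chromosome 13).
miR-23a-3p: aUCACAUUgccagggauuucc
miR-27a-3p: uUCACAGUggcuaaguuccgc
miR-24-3p: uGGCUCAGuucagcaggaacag

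The 2 VZN libraries differed from each other more than those of any other PGC group. Log2 values of single libraries were scaled by trimmed-mean (TMM) factors over the 303 miRNAs listed in all 24 PGC libraries. On that scale the difference between the 2 VZN F2Sy libraries had an SD of 1.42, and 107 miRNAs differed by more than 2-fold. In control F2Sy the SD was 0.81 with 32 such miRNAs, and in the other 10 groups 6 to 46 miRNAs differed that much. VZN library 2 held 2932091 listed counts, the fewest of the PGC libraries, against 7286621 in VZN library 1, 6578820 and 4949908 in the controls, and 4001293 to 7946140 in the other 20. It was the highest of all 24 libraries for 80 miRNAs and the lowest for 37, while VZN library 1 was the highest for 26 and the lowest for 32. The germ cell label held in all 4 libraries: the miR-290-295 cluster summed to 205210 and 228730 CPM (counts scaled to the listed total of the library) in control and 245450 and 191460 CPM in VZN, against at most 21487 CPM in the 24 libraries of the ovarian somatic fraction.

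**Figure D1:**
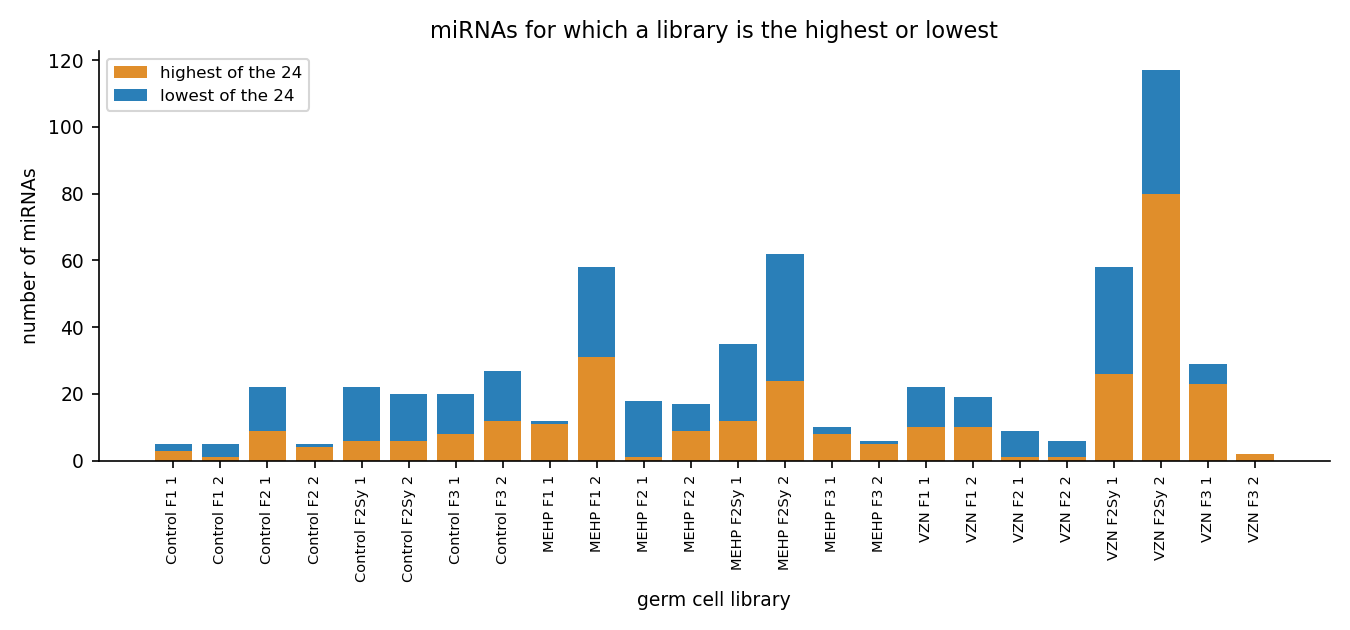
For each of the 24 PGC libraries, the bar counts the miRNAs, of 303, for which that library was the highest (orange) or the lowest (blue) of the 24. VZN F2Sy library 2 reached 117 in all and VZN F2Sy library 1 reached 58.

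The first question was which miRNAs differ between VZN and control F2Sy germ cells. 1 miRNA passed the test, miR-652-3p, which fell by 1.08 on the log2 scale. Of 303 miRNAs tested, 0 were higher and 1 was lower, or 0.33% (edgeR quasi-likelihood test over the 12 PGC groups, Benjamini-Hochberg adjusted p under 0.05). DESeq2 also called 1, and at an unadjusted edgeR p under 0.05 there were 22 miRNAs, or 7.26%, of which 19 were higher (6.27%) and 3 lower (0.99%). Over all 303 the median log2 fold change was 0.08 and the median absolute log2 fold change 0.29. In 93 miRNAs (30.7%) the VZN and control libraries did not overlap, 78 with VZN higher (25.7%) and 15 with VZN lower (4.95%). Overlap was judged here and below on CPM, while the fold changes are TMM-scaled. With the listed total alone as the scale, the median log2 fold change was 0.18. With 2 libraries against 2, an exact permutation test of a single miRNA cannot go below p = 0.333, so calls rest on the spread shared by the 12 groups.

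miR-652-3p is an abundant miRNA of these cells, among the 10 with the highest mean. It held 29720 and 30537 CPM in control libraries 1 and 2, and 15674 and 14985 CPM in VZN libraries 1 and 2. Both VZN libraries lay below both controls and below each of the other 20 PGC libraries, which spanned 23829 to 32199 CPM with a median of 26431. The log2 fold change was -1.08 ± 0.18 (SE, n = 2 against 2; edgeR adjusted p = 0.00569). It was -1.06 with VZN library 1 alone and -1.25 with VZN library 2 alone (edgeR adjusted p = 0.00693 and 0.00161), so the fall did not depend on the library that stood apart. The call was lost when control library 1 or control library 2 was left out (log2 fold changes -1.20 and -1.16; edgeR adjusted p = 0.0619 and 0.0817), and in a fit of the 4 libraries alone (-1.14; edgeR adjusted p = 0.995). Over 14 alternatives the log2 fold change ran from -1.25 to -0.97, and 11 of the 14 kept the call.

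The opposite arm, miR-652-5p, is scarce. It was listed at 40.3 and 31.1 CPM in the control libraries and left blank in both VZN libraries, whose smallest listed values were 19.2 and 37.9 CPM. It was listed in 16 of the other 20 PGC libraries, so blanks occur in other groups as well. In the somatic fraction of the same F2Sy ovaries miR-652-3p held 21165 and 17583 CPM in control and 24136 and 17992 CPM in VZN, which differed by 0.06 ± 0.36 on the log2 scale (SE; edgeR adjusted p = 0.990). All 4 of those somatic libraries lay above both VZN germ cell libraries. Of the 24 somatic libraries, the lowest (VZN F3 library 1, 6979 CPM) and second lowest (MEHP F2 library 2, 14211 CPM) lay below both. The somatic median was 20438 CPM.

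**Figure D2:**
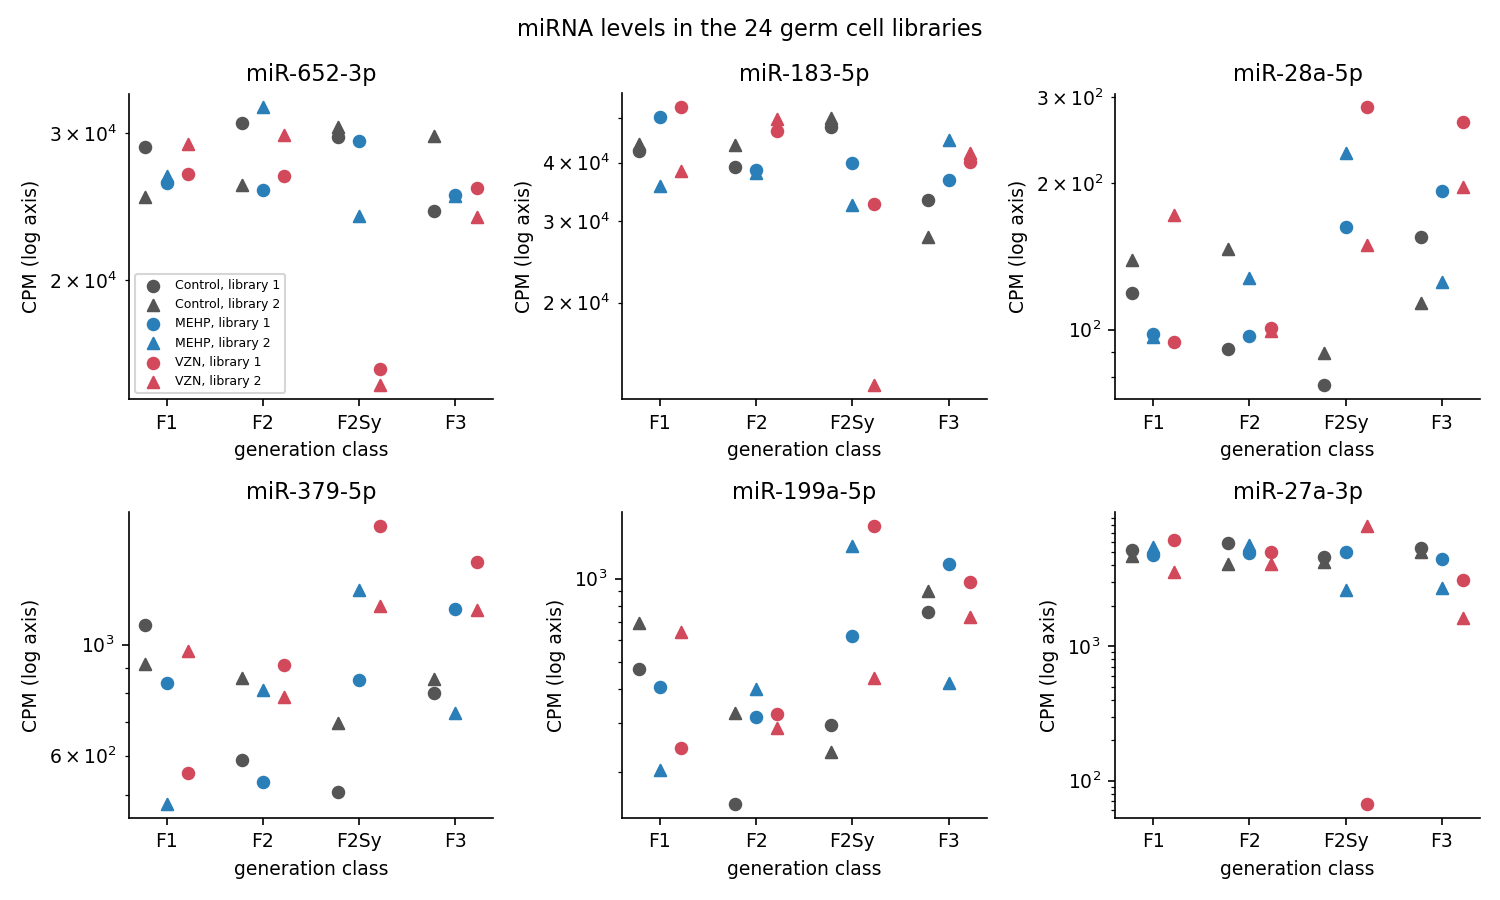
CPM on log axes of 6 miRNAs in the 24 PGC libraries, by generation class, exposure (colour) and library number (circle for 1, triangle for 2). For miR-652-3p both VZN F2Sy libraries, at 15674 and 14985 CPM, lie under every other library; for miR-27a-3p only VZN F2Sy library 1, at 67.1 CPM, does.

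The next question was whether the VZN difference depends on the lineage of both parents. For miR-652-3p the difference from control was 0.05 ± 0.18 in F1, 0.05 ± 0.18 in F2 and -0.20 ± 0.18 in F3 (log2 fold change, SE), and the same edgeR fit called 0 miRNAs in each of those classes, with 8, 5 and 1 at an unadjusted p under 0.05. The VZN effect in F2Sy minus that in F2 was -1.14 ± 0.26 for miR-652-3p (log2, SE), which did not pass (edgeR adjusted p = 0.117; DESeq2 adjusted p = 0.00637). No miRNA passed that test of the difference (0 of 303 by edgeR, 1 by DESeq2, which was miR-652-3p), and 9 (2.97%) had an unadjusted edgeR p under 0.05, 5 higher (1.65%) and 4 lower (1.32%). With VZN library 1 left out 16 passed, and with VZN library 2 left out 11 passed; miR-652-3p passed in both, at -1.32 and -1.15 (edgeR adjusted p = 0.00640 and 0.0317). The other miRNA with a small p was miR-324-5p at 2.58 ± 0.77 (log2, SE; edgeR adjusted p = 0.583). Set directly against VZN F2, VZN F2Sy was lower in miR-652-3p by -0.97 ± 0.18 (log2, SE; edgeR adjusted p = 0.0189), and that was the 1 miRNA called. Control F2Sy and control F2 differed in it by 0.17 ± 0.18 (log2, SE; edgeR adjusted p = 0.997).

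**Figure D3:**
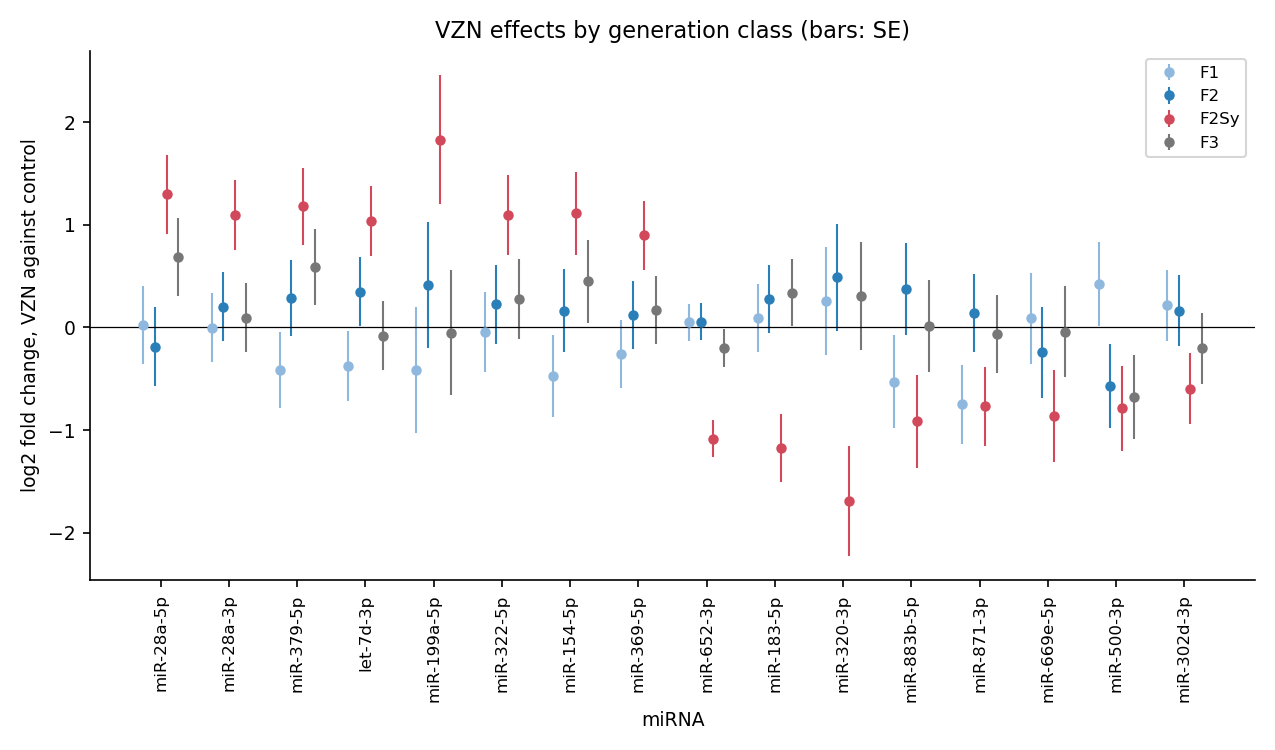
Log2 fold change of VZN against control in PGC, with the standard error as bars, for the 16 miRNAs named by the rule on small p-values, in F1, F2, F2Sy and F3 (2 against 2 libraries in each). In F2Sy miR-652-3p stands at -1.08 with a short bar, while its values in the other classes lie between -0.20 and 0.05.

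MEHP F2Sy is the group most like VZN F2Sy, since it shares the crossing scheme and differs in the disruptor and its dose. Against it, miR-652-3p was again lower in VZN F2Sy, and it was the 1 of 303 miRNAs called (0.33%). The MEHP F2Sy libraries held 29369 and 23896 CPM of miR-652-3p, both above the VZN libraries, and the log2 difference was -0.89 ± 0.18 (SE; edgeR adjusted p = 0.0442). The call was lost without MEHP library 1 (-0.85; edgeR adjusted p = 0.305) and when only the listed total set the scale (-0.79; edgeR adjusted p = 0.157). It was also lost with blanks at the smallest listed count, with all 48 libraries or only the groups compared in the fit, and with a replicate block (edgeR adjusted p = 0.114, 0.120, 0.764 and 0.0753), and 8 of 14 alternatives kept it. DESeq2 called 2, adding miR-871-3p of the X-linked germline cluster, and 43 miRNAs (14.2%) had an unadjusted edgeR p under 0.05, 20 higher (6.6%) and 23 lower (7.59%).

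The last planned comparison set the VZN effect in germ cells against that in the somatic fraction of the same class. Of 251 miRNAs listed in all 48 libraries 0 passed by edgeR, with 22 (8.76%) at an unadjusted p under 0.05, 18 higher (7.17%) and 4 lower (1.59%), and DESeq2 called 1, miR-379-5p. The germ cell minus somatic effect was 1.62 ± 0.43 for miR-379-5p and -1.17 ± 0.39 for miR-652-3p (log2, SE; edgeR adjusted p = 0.191 and 0.437). The somatic comparison itself called 0 of 355 miRNAs, with 7 at an unadjusted p under 0.05.

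None of the miRNAs that were higher in both VZN libraries passed, and those with the smallest p-values are given as values. miR-28a-5p, from an intron of the focal adhesion gene Lpp, held 76.8 and 89.5 CPM in control and 286 and 149 CPM in VZN, or 1.298 ± 0.39 on the log2 scale (fold change, SE; edgeR adjusted p = 0.309). Its 2 control libraries were below each of the other 22 PGC libraries, so the F2Sy controls were low for it. In a fit of all 48 libraries it passed at 1.20 (edgeR adjusted p = 0.0385). Its partner arm miR-28a-3p held 36.2 and 31.5 CPM in control and 73.1 and 83.6 CPM in VZN, and it was the 1 miRNA of 303 more than 1 log2 unit above the control mean in each VZN library.

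miR-379-5p, the first miRNA of its Dlk1-Dio3 subcluster, held 507 and 696 CPM in control and 1729 and 1196 CPM in VZN (log2 fold change 1.18 ± 0.37, SE; edgeR adjusted p = 0.309). Its cluster neighbour miR-411-5p held 763 and 1053 CPM in control and 1476 and 2137 CPM in VZN. miR-369-5p of the same cluster held 406 and 624 CPM in control and 919 and 1163 CPM in VZN. Both VZN values of miR-369-5p exceeded each of the other 22 PGC libraries, which also held for miR-99b-5p, miR-132-5p and miR-346-5p. By comparison, both MEHP F2Sy libraries exceeded the other 22 for 14 miRNAs and lay under them for 9, and the other groups had 0 to 2 in either direction.

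let-7d-3p, the passenger arm of a let-7 precursor, held 95.8 and 125 CPM in control and 209 and 284 CPM in VZN. The mesenchymal miR-199a-5p held 295 and 236 CPM in control and 1553 and 438 CPM in VZN, and miR-322-5p of an X-linked cluster held 4361 and 5350 CPM in control and 14439 and 7662 CPM in VZN. For both, VZN library 1 was the highest of the 24 PGC libraries and VZN library 2 lay within the range of the other 20. Against the same controls, the MEHP F2Sy libraries held 623 and 1319 CPM of miR-199a-5p, a log2 fold change of 1.87 beside 1.83 in VZN. That MEHP comparison, which shares the controls, also stood at 1.24 for miR-28a-5p, 1.00 for let-7d-3p and 0.83 for miR-379-5p (log2 fold changes; edgeR adjusted p = 0.506 for each). With VZN library 1 alone miR-199a-5p, miR-322-5p, miR-28a-5p and miR-154-5p passed as higher (log2 fold changes 2.43, 1.45, 1.66 and 1.67; edgeR adjusted p = 0.0214, 0.0413, 0.0169 and 0.00214). With VZN library 2 alone 0 miRNAs passed as higher, and miR-154-5p stood at -0.13, at 46.5 and 46.7 CPM in control, 161 CPM in VZN library 1 and 50.5 CPM in VZN library 2.

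Among the miRNAs lower in both VZN libraries, miR-183-5p, an abundant germ cell miRNA of the miR-183 cluster, held 47717 and 49900 CPM in control and 32571 and 13283 CPM in VZN. The log2 fold change was -1.18 ± 0.33 (SE; edgeR adjusted p = 0.309). Library 2 was under every other PGC library, whose lowest was 27662 CPM among the other 20, and library 1 lay within their range. miR-320-3p, which is made without Drosha cleavage, held 1978 and 1048 CPM in control and 313 and 715 CPM in VZN (-1.69 ± 0.54, log2, SE; edgeR adjusted p = 0.309), and it was the 1 miRNA more than 1 log2 unit under the control mean in each VZN library. miR-871-3p of the X-linked germline cluster held 19533 and 17650 CPM in control and 12165 and 11338 CPM in VZN, both within the other 20 libraries (9321 to 30668 CPM).

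The remaining named miRNAs on the lower side were miR-883b-5p, miR-669e-5p, miR-500-3p and miR-302d-3p, and their log2 fold changes ran from -0.92 to -0.60. Each rested mainly on 1 library except miR-302d-3p of the pluripotency-type miR-302 cluster, which held 648 and 793 CPM in control and 562 and 464 CPM in VZN. miR-883b-5p held 1128 and 982 CPM in control, 889 CPM in VZN library 1 and 292 CPM in VZN library 2.

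Each VZN library had its own set of miRNAs far from control. VZN library 1 was more than 1 log2 unit above the control mean for 37 miRNAs (12.2%) and below it for 28 (9.24%), and VZN library 2 for 21 (6.93%) and 28 (9.24%). Both libraries passed this line upward for 1 miRNA and downward for 1, and they passed it in opposite directions for 8 (2 with library 1 higher, 6 with library 2 higher). The 2 libraries are set against the same controls, so their values are given side by side without a measure of likeness. With VZN library 1 alone edgeR called 17 miRNAs, 4 higher and 13 lower, and with VZN library 2 alone 19, all lower. miR-652-3p was the 1 miRNA called with either. In such a fit the lone library is taken to vary like the other groups.

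**Figure D4:**
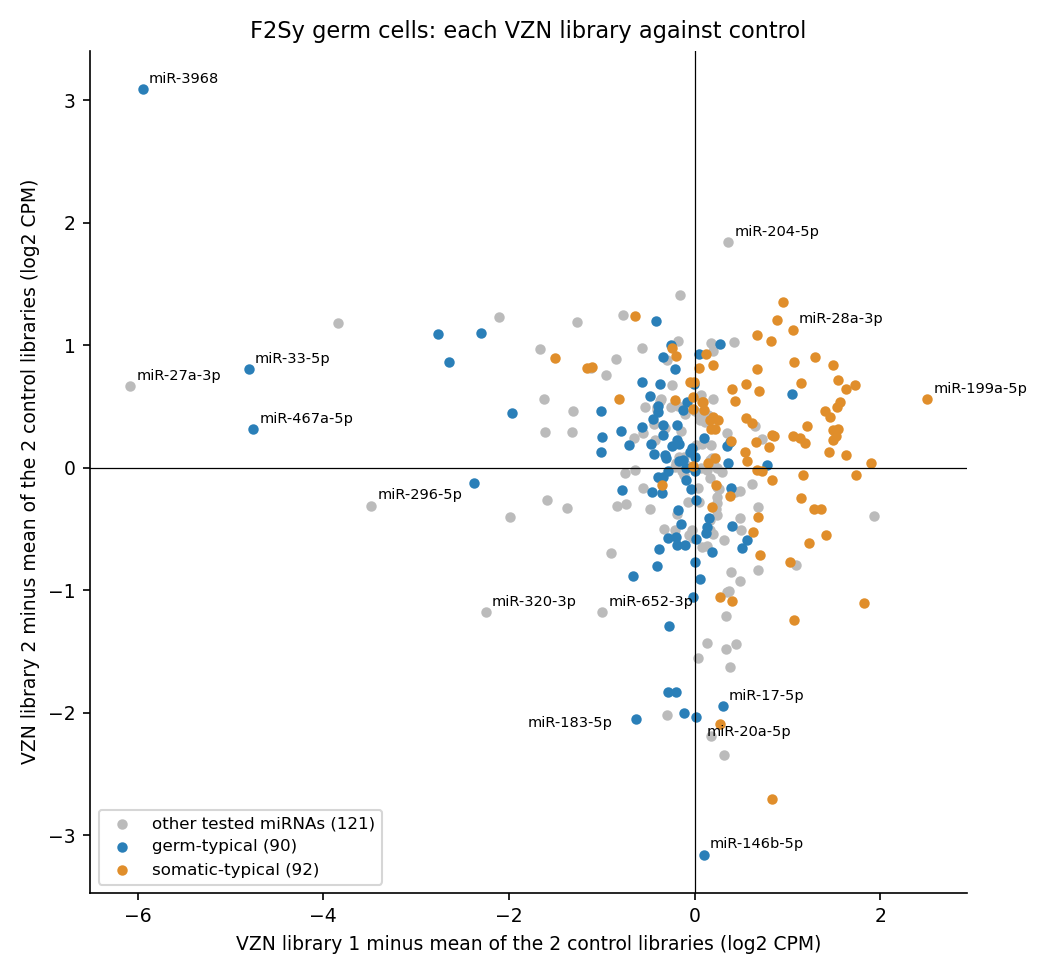
Each point is 1 of 303 miRNAs, in TMM-scaled log2 CPM minus the mean of the 2 control libraries. VZN library 1 is on the x axis and VZN library 2 on the y axis. Colours show whether control F1, F2 and F3 libraries held more in the somatic or the germ cell fraction. miR-652-3p lies at -0.99 and -1.18, miR-27a-3p at -6.08 and 0.67, and miR-146b-5p at 0.10 and -3.16.

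In VZN library 1 some miRNAs were very low, in part without the neighbours of their gene cluster. miR-27a-3p held 4594 and 4216 CPM in control, 67.1 CPM in VZN library 1 and 7862 CPM in VZN library 2, with 1617 to 6214 CPM in the other 20 PGC libraries. Of the neighbouring genes, miR-23a-3p held 2688 and 2841 CPM in control and 2293 and 3902 CPM in VZN, and miR-24-3p held 6072 and 8633 CPM in control and 3878 and 13817 CPM in VZN. All 3 were lowest of the 24 libraries in VZN library 1, by very different margins.

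miR-467a-5p of the Sfmbt2 locus, a rodent-specific miRNA array, held 7993 and 5452 CPM in control, 253 CPM in VZN library 1 and 9261 CPM in VZN library 2. miR-296-5p held 1219 and 969 CPM in control, 100.5 CPM in VZN library 1 and 988 CPM in VZN library 2. Its partner arm miR-296-3p was low in the same library, with 786 and 437 CPM in control, 123 CPM in VZN library 1 and 1414 CPM in VZN library 2. So both arms of miR-296 were low in VZN library 1. Low values of this kind were not confined to the VZN F2Sy group for every miRNA: miR-33-5p, encoded within a sterol regulator gene, was at 153 CPM in VZN library 1, but at 381 CPM in VZN F3 library 2 and 419 CPM in MEHP F3 library 2. miR-3968 ranged from 50.2 to 10379 CPM in the other 20 libraries and from 133 to 14989 CPM between the 2 controls.

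In VZN library 2 some miR-17 family members were low, while certain neighbours in their clusters were not. miR-17-5p, which promotes proliferation, held 6102 and 4460 CPM in control, 6667 CPM in VZN library 1 and 1524 CPM in VZN library 2, under the 5175 to 9054 CPM of the other 20. miR-20a-5p held 8091 and 5643 CPM in control, 7082 CPM in VZN library 1 and 1857 CPM in VZN library 2. miR-106a-5p of the paralogous X-linked cluster held 359 and 330 CPM in control, 465 CPM in VZN library 1 and 125 CPM in VZN library 2.

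Neighbours from the same transcript were not low in that library. miR-92a-3p, the most abundant miRNA here, held 101490 and 95998 CPM in control and 98515 and 121390 CPM in VZN, and miR-19b-3p held 6157 and 4219 CPM in control and 5421 and 5114 CPM in VZN. miR-18a-5p, another 5p arm of the cluster, held 2597 and 1837 CPM in control and 2160 and 2022 CPM in VZN. Both VZN values lay between the controls. The passenger arm miR-17-3p held 731 and 399 CPM in control and 858 and 556 CPM in VZN. miR-93-5p, which has the same seed as miR-17-5p, held 19941 and 15621 CPM in control and 16623 and 19563 CPM in VZN. Near-identical members such as miR-17-5p and miR-106a-5p can share reads, so their separate values are uncertain.

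The same library separated the arms of miR-183, and those of miR-182. While miR-183-5p was at 13283 CPM, its passenger arm miR-183-3p held 1108 and 1229 CPM in control, 890 CPM in VZN library 1 and 1682 CPM in VZN library 2, the highest of the 24. miR-96-5p of that cluster held 8329 and 11684 CPM in control and 8096 and 13373 CPM in VZN. miR-182-5p held 43948 and 25982 CPM in control and 30583 and 10696 CPM in VZN. Its scarce passenger arm miR-182-3p held 56.5 and 79.2 CPM in control, 19.2 CPM in VZN library 1 and 219 CPM in VZN library 2. Other miRNAs far down in VZN library 2 included miR-146b-5p, at 547 and 202 CPM in control and 368 and 41.6 CPM in VZN. miR-155-5p held 394 and 211 CPM in control and 373 and 63.4 CPM in VZN. miR-150-5p, tested with miR-155-5p as a leukocyte marker, went the other way in library 2. It held 162 and 194 CPM in control and 74.1 and 275 CPM in VZN.

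By seed family, the miR-99/100 family had a median log2 fold change of 1.02, with medians of 1.49 in VZN library 1 and 0.65 in VZN library 2 against the control mean. miR-99a-5p held 2538 and 3151 CPM in control and 9055 and 4985 CPM in VZN, and miR-99b-5p held 5795 and 6766 CPM in control and 9553 and 11348 CPM in VZN. The 9 let-7 miRNAs with the seed GAGGUAG stood at 1.14 in library 1 and -0.32 in library 2, and the 4 of miR-181 with the seed ACAUUCA at 1.01 and -0.76. The 6 of the miR-17 family stood at 0.01 and -1.20. The 3 of miR-30 with the seed GUAAACA were all above the control mean in library 1 and all below it in library 2. The median of all 303 was 0.05 in library 1 and 0.13 in library 2. The MEHP F2Sy libraries held 4054 and 6400 CPM of miR-99a-5p, and 6421 and 6730 CPM of miR-99b-5p. MEHP F2Sy against the same controls stood at 0.71, 0.55, 0.21 and 0.44 for let-7c-5p, let-7a-5p, let-7f-5p and let-7g-5p (log2 fold changes). It stood at 0.85 for miR-100-5p, and at 0.72, 1.00, 0.02 and 0.06 for miR-181a-5p, miR-181b-5p, miR-181c-5p and miR-181d-5p. Over all 303 miRNAs the median of that comparison was 0.006.

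Among the miRNA lists, 0 members passed in either direction, miR-652-3p being in none of them. The Dlk1-Dio3 cluster had a median log2 fold change of 0.44 over 28 tested members, against 0.08 over all 303. Of these 28, 27 had a fold change above 0, against 171 of 303 over all miRNAs tested. In both VZN libraries 18 were above both controls, against 25.7% of all miRNAs tested. Its medians were 0.65 in VZN library 1 and 0.48 in VZN library 2. miR-127-3p, its most abundant member, held 2187 and 1771 CPM in control, 1719 CPM in VZN library 1 and 4373 CPM in VZN library 2. miR-431-5p held 976 and 924 CPM in control, 347 CPM in VZN library 1 and 1986 CPM in VZN library 2. So single members of the cluster went opposite ways in the 2 libraries. MEHP F2Sy against the same controls stood at 0.57, 0.65, 0.32 and 0.83 for miR-127-3p, miR-411-5p, miR-431-5p and miR-379-5p (log2 fold changes). The tested members below 0 in that comparison were miR-409-3p, miR-434-5p and miR-543-3p, at -0.26, -0.03 and -0.02.

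Summed, mesenchymal and gonadal somatic markers stood higher in both VZN libraries than in both controls. The list had a median log2 fold change of 0.98 over 14 tested members, 9 of them above both controls in both VZN libraries, against 25.7% of all miRNAs tested. The median was 0.29 without VZN library 1 and 1.29 without VZN library 2. Not all members followed: miR-143-3p, typical of smooth muscle, held 1168 and 1237 CPM in control, 579 CPM in VZN library 1 and 2391 CPM in VZN library 2. Summed over the tested markers, the list reached 17114 and 21886 CPM in control and 48592 and 32137 CPM in VZN. These lay within the 15671 to 53012 CPM of the other 20 PGC libraries, whose median of 26831 CPM was above both controls. miR-199b-5p and miR-145a-5p, also on the list, were blank in all 4 libraries. MEHP F2Sy against the same controls stood at 0.22, 0.74, 1.48 and 0.89 for miR-322-5p, miR-10b-5p, miR-199b-3p and miR-143-3p (log2 fold changes). The erythroid marker miR-451a held 961 and 1378 CPM in control and 3483 and 1611 CPM in VZN, with miR-144-3p and miR-486b-5p blank. Its median in the other 20 PGC libraries was 2164 CPM, above both controls and VZN library 2. The endothelial miR-126a-3p held 3699 and 5274 CPM in control and 5459 and 6534 CPM in VZN. The other 20 PGC libraries spanned 2271 to 11495 CPM of it, with a median of 5505 CPM, above both controls and VZN library 1. In such bulk fractions, more cells of a type and more RNA per cell cannot be told apart. The part of somatic RNA in the higher values was not tested.

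The same held over all somatic-typical miRNAs, taken, after the data were seen, as those more than 1 log2 unit higher in the somatic than the germ cell fraction of the F1, F2 and F3 controls. Of 92 such miRNAs 83 had a fold change above 0, with a median of 0.50, against 171 of 303 over all miRNAs tested. In both VZN libraries 51 were above both controls and 0 below, against 25.7% and 4.95% of all miRNAs tested. Their summed level was 65590 and 77240 CPM in control and 133310 and 106140 CPM in VZN, within the 63369 to 143400 CPM of the other 20. The median of the other 20 was 90354 CPM, above both controls and below both VZN libraries. All 28 tested Dlk1-Dio3 members, all 10 of the let-7 list and 12 of the 14 mesenchymal markers belong to them. The MEHP F2Sy values given above for members of these lists were set against the same controls. The 90 germ-typical miRNAs had a median of -0.11, with 5 above and 10 below both controls in both VZN libraries, against the same 25.7% and 4.95%. miR-652-3p is in neither class.

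**Figure D5:**
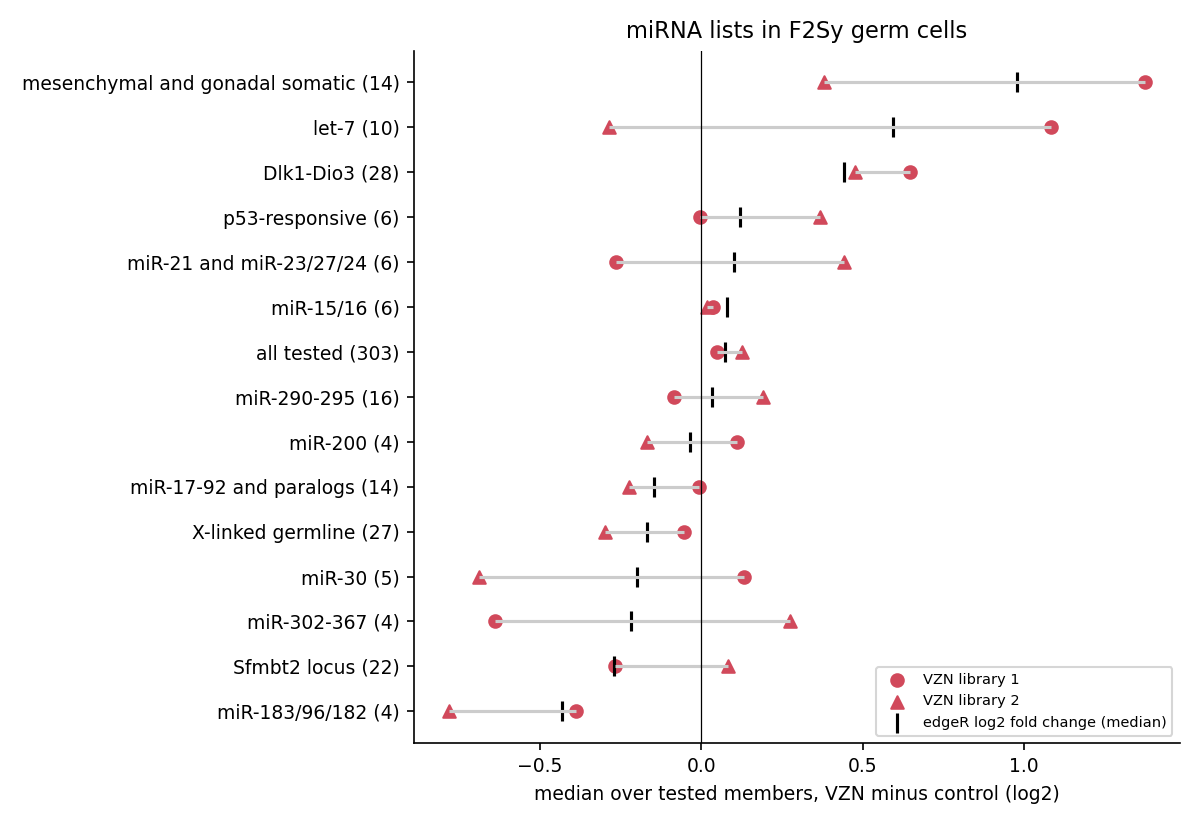
Median over the tested members of each miRNA list (number in brackets), for VZN library 1 (circle) and VZN library 2 (triangle). Values are TMM-scaled log2 CPM minus the control mean, with the median edgeR log2 fold change as a bar. The mesenchymal list lies at 1.38 and 0.38, the Dlk1-Dio3 list at 0.65 and 0.48, and the miR-183 cluster at -0.39 and -0.78.

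Among the germ cell and pluripotency lists, the miR-290-295 cluster had a median log2 fold change of 0.03 over 16 members, with 1 above and 1 below both controls, against 25.7% and 4.95% of all miRNAs tested. Its most abundant member miR-292a-3p held 93330 and 82521 CPM in control, 94546 CPM in VZN library 1 and 52689 CPM in VZN library 2, the lowest of the 24. The X-linked germline cluster stood at -0.17 over 27 members, with 7 of 27 above and 7 of 27 below both controls; over all miRNAs tested the shares were 25.7% above and 4.95% below. The Sfmbt2 locus stood at -0.27, with 21 of 22 members under 0, against 132 of 303 over all miRNAs tested. Of its members 2 were below both controls, against 4.95% of all miRNAs tested. Its medians were -0.27 in VZN library 1 and 0.08 in VZN library 2. Above the control mean were 1 of 22 members in VZN library 1 and 12 of 22 in VZN library 2. The miR-183 cluster stood at -0.43 over 4 members, and their summed level was 39034 CPM in VZN library 2, under the 54324 CPM of the lowest of the other 20 libraries. The median was -0.15 for the miR-17-92 list over 14 members, -0.20 for miR-30 over 5 and 0.12 for the p53-responsive list over 6.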

How the data were processed

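Small RNA libraries of germ cells and somatic cells were counted by the authors, who deposited whole-number read counts per mature miRNA, summed over isomiRs per the file headers. Bowtie 1.3.1 and mm39 were used per the submitters' processing notes; for the miRNA annotation and the counting rules the sources used here give nothing. The table has blanks and no 0 (31.4% of PGC cells), under a rule not given, so totals are of listed counts and not depth. Because of these blanks, each fit used miRNAs listed in all its libraries. These were 303 in PGC, holding 98.98 to 99.52% of listed counts, and 251 over both fractions. The other 29 of the 332 entered alternatives only. piRNAs were not analysed here.

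Differences were tested in R 4.3.3 by the two-sided quasi-likelihood test of edgeR 4.0.16 (robust, TMM-scaled, filterByExpr; Benjamini-Hochberg over the miRNAs tested, calls under 0.05), with 12 PGC groups of 2 in 1 fit, 12 residual degrees of freedom and a biological coefficient of variation of 0.336. The script was tested on simulated data. CPM scale by the listed total, and so do the ranks, overlaps and summed levels of libraries. The log2 values of single libraries are instead TMM-scaled over the 303 fitted miRNAs, with 2 as the prior count. Replicate differences, distances from the control mean and the single-library medians of lists and seed families are on that log2 scale. No molecular identifiers are mentioned, so counts are of reads and not of molecules. Alternatives used RLE factors, the listed total alone, other treatments of blanks, DESeq2 1.42.0, limma 3.58.1, other sets of libraries, a replicate block and each library left out. The pairs' numbers are not tied to a shared litter or day by the labels.

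The members and the miRNA lists were chosen with earlier results of these data known. Named miRNAs are the 12 largest calls per direction or, with fewer than 4 calls, the 8 per direction with the smallest p whose groups do not overlap, then the 10 most abundant, up to 4 of each list and, for other comparisons, the calls or the 2 smallest p. Other miRNAs were named after their values were seen, such as miR-143-3p, miR-17-5p, miR-106a-5p, miR-146b-5p, miR-296-5p, miR-33-5p and miR-3968.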

Additional observations from a re-analysis of the deposited data

Results flagged for a closer look

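Some miRNAs outside the tested set were listed in both VZN F2Sy germ cell libraries and blank in both controls, above the smallest value listed in each control library. miR-27b-5p held 28.0 and 65.8 CPM in VZN (mean 46.9 CPM), and it was listed in 8 of the other 20 PGC libraries. miR-543-5p of the Dlk1-Dio3 cluster held 55.4 and 38.5 CPM (mean 47.0 CPM), and it was listed in 5 of the other 20. The smallest values listed in the controls were 22.8 and 24.2 CPM. Blanks do not mean 0 here, so no fold change is given.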

How the results depend on the processing

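The count of called miRNAs for VZN against control in F2Sy germ cells was 1 in most alternatives, 2 with all 48 libraries in the fit and 0 with only the groups compared, and it ran from 0 to 19 when single libraries were left out. The difference between the F2Sy and F2 effects gave 1 call with DESeq2 and 0 to 16 with libraries left out. VZN against MEHP F2Sy gave 2 with DESeq2, 0 with the listed total alone, with blanks at the smallest listed count, with all 48 libraries and with only the groups compared, and 0 to 49 with libraries left out. The germ cell minus somatic effect gave 1 with DESeq2 and 0 to 16 with libraries left out. With fewer libraries in a fit the spread is estimated from fewer groups; otherwise the cause was not tested. miR-154-5p, at 1.11, ran from -0.13 without VZN library 1 to 1.67 without VZN library 2.

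The listed total alone as the scale moved the median log2 fold change of all miRNAs from 0.08 to 0.18, and RLE factors moved it to 0.01. Of single-miRNA values that did not involve a left-out library, 307 kept direction and side of the threshold, 3 gained a call and 6 lost one; the Dlk1-Dio3 median was 0.18 with blanks at the smallest listed count, and the let-7 median ran from -0.39 to 0.98 with libraries left out.

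With the replicate number as a block the calls were 1, 0, 0 and 0 for the 4 comparisons in the order above, where VZN against MEHP lost its call (miR-652-3p, -0.89; edgeR adjusted p = 0.0753). The labels do not tie the numbers together. Replicate differences of VZN and control F2Sy correlated at 0.298 across 303 miRNAs. Over 66 pairs of PGC groups this correlation ran from -0.497 to 0.622, and 23 pairs exceeded 0.1.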
